A study of Homo sapiens with 6 samples.

Results

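The genes described here are the nuclear-encoded structural subunits of the mitochondrial respiratory chain and of ATP synthase. They were chosen by name, as the protein-coding rows of the count table whose symbol began with NDUFA, NDUFB, NDUFC, NDUFS or NDUFV and a number, with SDHB to SDHD, UQCR, COX4 to COX8, ATP5F1, ATP5M or ATP5P. This rule gave 87 genes of 61806, namely 37 of complex I, 3 of complex II, 9 of complex III, 19 of complex IV and 19 of complex V (ATP synthase). NDUFA4 and NDUFA4L2, which carry an NDUFA symbol, were placed with complex IV, and the read-through genes NDUFC2-KCTD14 and ATP5MF-PTCD1 were kept because their symbols match. A further 180 rows matched the same names without being protein-coding, mostly processed copies of these genes, and were left out.

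RNA sequencing measured mRNA in MV4-11, an established human acute myeloid leukemia (AML) cell line with a monocytic phenotype that carries an internal tandem duplication in FLT3. The 3 shNC libraries came from cells with a non-targeting control shRNA and the 3 shATGL libraries from cells labelled as carrying an shRNA against ATGL, the lipase encoded by PNPLA2 that releases fatty acids from stored triglyceride. Both groups are the same cell line, and apart from the shRNA the labels name no treatment or time. The labels do not say which shRNA sequence was used or whether replicates were separate cultures, so p-values measure only the spread between these libraries, which may be technical.

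The respiratory chain passes electrons from NADH (complex I) and succinate (complex II) through ubiquinone, complex III and cytochrome c to complex IV, which reduces oxygen. Complexes I, III and IV pump protons across the inner mitochondrial membrane, and complex V uses the gradient to make ATP. Most subunits are encoded in the nucleus and imported, and a few membrane subunits of complexes I, III, IV and V are encoded by mitochondrial DNA, so the assembly of a complex draws on both genomes. AML cells are known for a marked reliance on oxidative phosphorylation.

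The total counts per library ranged from 59674064 to 74808280. The target gene came first as a check of the labels: PNPLA2 stood at 101, 97.0 and 107 CPM (counts per 1000000, scaled by TMM factors) in shNC 1 to 3 and at 102, 98.1 and 104 CPM in shATGL 1 to 3. The groups overlapped (log2 fold change -0.01, 95% interval -0.15 to 0.14, adjusted p = 0.979 by edgeR), so the libraries labelled shATGL did not show less of the targeted transcript, and every direction given here is one between libraries labelled shATGL and libraries labelled shNC. All 10 AML and monocytic markers were detected at 1 CPM or more, with summed levels of 1787 to 1892 CPM in shNC and 1672 to 1795 CPM in shATGL. None of 5 T cell or 4 epithelial markers reached 1 CPM in the mean, and CD3D, CD3G, CD8A, EPCAM, KRT18 and KRT19 were at 0 in every library. Of 4 B cell markers 3 reached 1 CPM (summed 9.64 to 10.4 CPM in shNC and 10.8 to 11.8 CPM in shATGL) and MS4A1 was at 0, and 1 of 4 stromal and 1 of 4 striated muscle markers reached it. The library labelled shATGL 3 stood apart from shATGL 1 and 2, and the main counts and medians of the members and of the other gene lists are also given without it.

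Several promoters of this family are known to bind the nuclear respiratory factor NRF1, ETS factors such as GABP, and YY1. The sequences of 4 members are shown because each was, in complex I, III, IV or V, the member with the smallest unadjusted p among those whose promoter held at least 1 of the 3 motifs searched. Each runs from 250 bases before to 50 bases after the RefSeq start of the gene (GRCh38.p14) and is written 5′ to 3′ on the gene's strand. The motifs in capitals are GCGCATGC or its reverse complement GCATGCGC (the NRF1 core), CCGGAAG or CTTCCGG (ETS), and AAGATGGCG or CGCCATCTT (YY1). The positions are chr19:19515975-19516274 on the plus strand for NDUFA13, chr5:132866392-132866691 on the plus strand for UQCRQ, chr2:97645812-97646111 on the plus strand for COX5B and chr21:25735005-25735304 on the minus strand for ATP5PF.
NDUFA13: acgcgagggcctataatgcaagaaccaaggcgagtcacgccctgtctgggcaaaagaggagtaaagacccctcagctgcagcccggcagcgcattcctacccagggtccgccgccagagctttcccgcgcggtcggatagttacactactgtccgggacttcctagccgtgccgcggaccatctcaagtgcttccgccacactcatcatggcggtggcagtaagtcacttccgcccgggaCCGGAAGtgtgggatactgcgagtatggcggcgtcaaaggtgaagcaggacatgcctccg
UQCRQ: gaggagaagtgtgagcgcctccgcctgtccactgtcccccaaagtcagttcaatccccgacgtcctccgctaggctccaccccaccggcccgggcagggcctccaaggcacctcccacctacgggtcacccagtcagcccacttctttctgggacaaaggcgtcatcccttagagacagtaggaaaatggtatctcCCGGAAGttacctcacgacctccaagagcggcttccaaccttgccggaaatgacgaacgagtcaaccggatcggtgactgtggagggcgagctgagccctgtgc
COX5B: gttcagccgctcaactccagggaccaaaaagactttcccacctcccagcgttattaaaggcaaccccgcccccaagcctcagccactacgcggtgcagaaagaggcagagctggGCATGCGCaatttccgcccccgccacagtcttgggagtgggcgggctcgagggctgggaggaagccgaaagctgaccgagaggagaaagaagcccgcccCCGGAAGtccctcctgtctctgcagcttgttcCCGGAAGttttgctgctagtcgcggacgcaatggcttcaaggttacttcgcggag
ATP5PF: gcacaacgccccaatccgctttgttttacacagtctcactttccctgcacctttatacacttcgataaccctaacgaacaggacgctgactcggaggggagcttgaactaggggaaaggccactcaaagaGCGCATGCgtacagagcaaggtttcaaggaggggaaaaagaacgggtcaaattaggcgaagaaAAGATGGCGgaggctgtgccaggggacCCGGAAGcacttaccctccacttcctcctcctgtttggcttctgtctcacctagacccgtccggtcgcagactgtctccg

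The NRF1 letters were found in 13 of the 66 tested members that had a promoter in the table (19.7%) and in 4.26% of all 15843 promoters. The ETS letters were found in 20 of the 66 (30.3%) against 14.2% of all promoters, and the YY1 letters in 8 (12.1%) against 2.74%. At least 1 of the 3 was present in 31 members (47.0%) and in 19.5% of all promoters. Both strands were searched, a promoter was counted once however many matches it held, and the NRF1 letters and their reverse complement overlap where both occur in one palindrome. COX5B held a match for NRF1 and a pair for ETS, and ATP5PF held a match for each of the 3 motifs. A match is a run of letters and not a measured binding site.

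Transcripts of these genes were lower in the libraries labelled shATGL in nearly every case, by a modest amount that no single gene carried past the adjusted threshold. Of the 80 members tested, 79 had a log2 fold change under 0 (98.8%), against 48.1% of all 19149 genes tested. The median log2 fold change of the members was -0.26, which is 83.6% of the shNC level, with quartiles of -0.33 and -0.18, and that of all genes tested was 0.01. Over the 9297 genes with a mean of at least 10 CPM it was -0.02, and 5144 of these genes were under 0. COX5B, a nuclear-encoded subunit of complex IV, stood at 75.4% of shNC, NDUFB8 of complex I at 76.5%, and ATP5PO, in the stalk of ATP synthase, at 82.8%.

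No member was called (adjusted p under 0.05 with a 2-fold change or more), and 0.00522% of all genes tested (1 gene) were. The smallest adjusted p of a member was 0.392 (edgeR, quasi-likelihood test, Benjamini-Hochberg over all genes tested). At an unadjusted p under 0.05, 55 of 80 members (68.8%) were lower, against 5.94% of all genes tested, and 0 members were higher, against 5.77%. Among genes with a mean of at least 10 CPM the counts were 55 of 77 members (71.4%) and 10.4% of genes. In 50 members (62.5%) every shATGL library lay under every shNC library, which held for 9.38% of all genes tested. The share among genes of at least 10 CPM is not given here. The exact permutation test over the 20 relabellings cannot go below p = 0.1 with 3 against 3 libraries, and these 50 members reached that value. Bulk RNA cannot tell fewer cells with these transcripts from less RNA per cell.

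**Figure D1:**
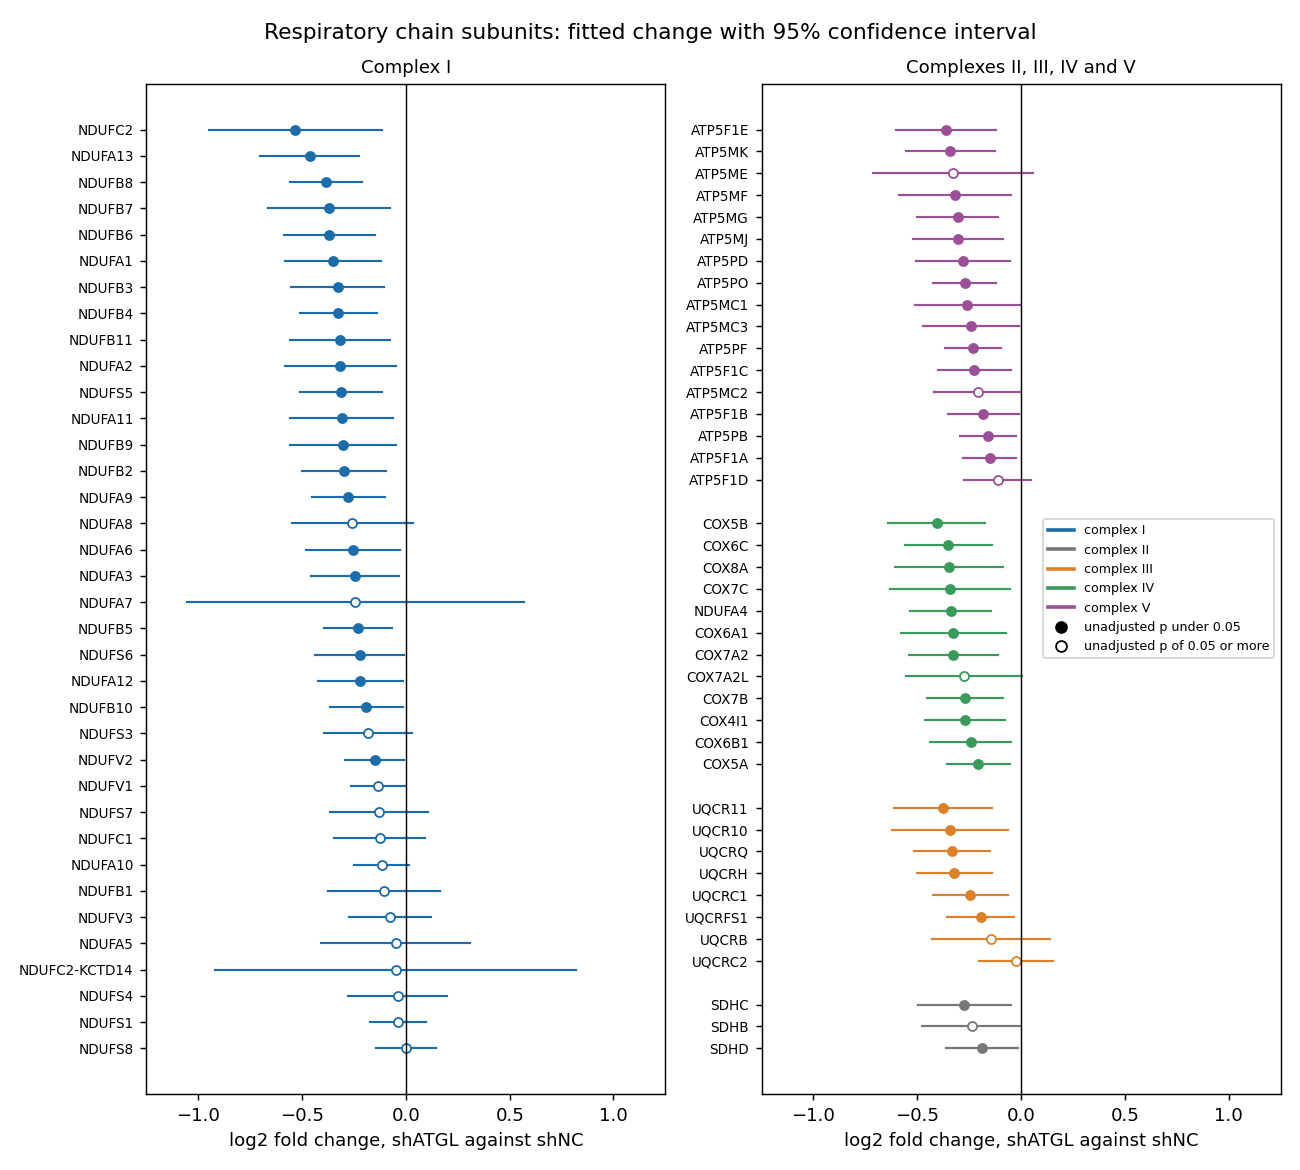
Log2 fold change of shATGL against shNC (horizontal axis) for 76 of the 77 members with a mean of at least 10 CPM, with 95% confidence intervals from edgeR, complex I on the left and complexes II to V on the right. Filled points have an unadjusted p under 0.05. Nearly all points lie left of 0, NDUFC2 is lowest at -0.53 and NDUFS8 is at 0.00.

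The summed level shows the same in each library. Over all members it was 10827, 10573 and 11864 CPM in shNC 1 to 3 and 9218, 9100 and 10084 CPM in shATGL 1 to 3. Every shATGL library was under every shNC library, and the mean of shATGL was 85.4% of that of shNC. By complex the shATGL mean was 86.1% of shNC for complex I, 85.0% for complex II, 85.7% for complex III, 80.9% for complex IV and 87.0% for complex V. Scaling by library totals in place of TMM factors brought the sum over all members to 88.8%.

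**Figure D2:**
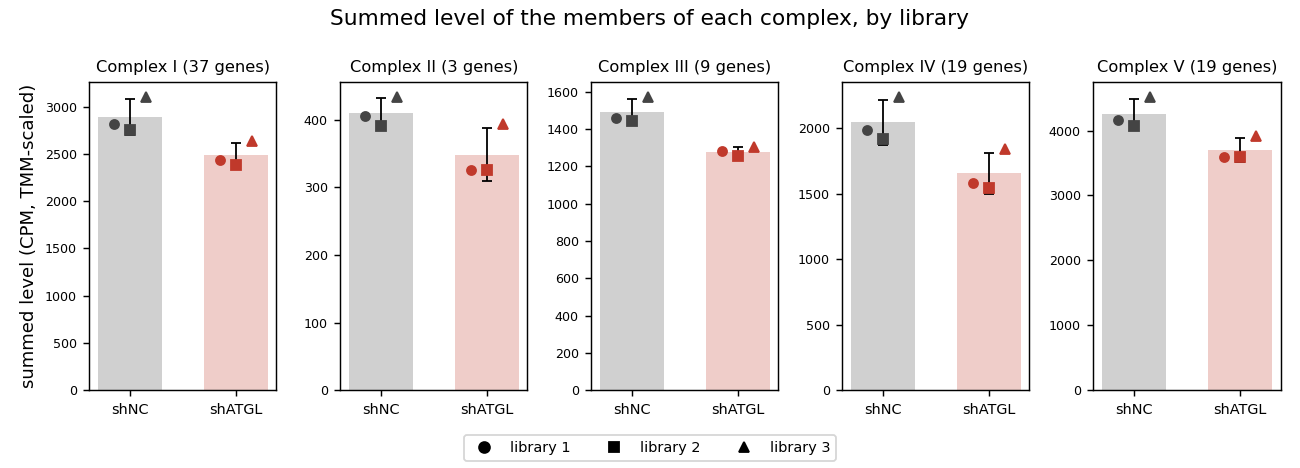
Summed level in CPM (vertical axis, from 0) of the members of each complex in the shNC and shATGL libraries. Bars are means, error bars SD over 3 libraries, and the circle, square and triangle are libraries 1, 2 and 3. For complex II, shATGL 3 at 394 CPM lies above shNC 2 at 391 CPM, while in complexes I, III, IV and V the groups do not overlap.

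Complex I takes electrons from NADH. Its 7 nuclear-encoded core subunits, which hold the flavin and the iron-sulfur clusters, had a median log2 fold change of -0.13, and 1 of them, NDUFV2 (-0.15, SE 0.06), had an unadjusted p under 0.05. The 29 accessory subunits, which surround and stabilise the core, had a median of -0.28, and 21 of them had an unadjusted p under 0.05. The difference between core and accessory subunits was not tested. Core subunits had longer transcripts, with a median of 1039 bases against 804, and a median coding length of 795 bases against 387. After correction for length and GC content the medians of core and accessory subunits were -0.08 and -0.19. Among accessory subunits the 11 NDUFB genes, which belong to the membrane arm, had a median of -0.32 (10 at an unadjusted p under 0.05), and the 12 NDUFA genes had a median of -0.26 (8 at an unadjusted p under 0.05).

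NDUFB8 (chr10:100523740-100530000, minus strand, GENCODE 29), a membrane-arm subunit whose protein is often used as a marker of assembled complex I, measured 106, 94.2 and 107 CPM in shNC and 76.6, 75.1 and 82.9 CPM in shATGL. The groups did not overlap, with 102 ± 6.91 CPM against 78.2 ± 4.16 CPM (SD, n = 3 each), and the log2 fold change was -0.39 (SE 0.07). NDUFA13, also known as GRIM-19, measured 115, 118 and 122 CPM in shNC and 81.1, 76.7 and 99.9 CPM in shATGL. In its own row the groups did not overlap, although shATGL 3 was nearest to shNC, and the log2 fold change was -0.46 (SE 0.10). NDUFA13 shares exons on the same strand with ENSG00000258674, which held 6.47, 3.19 and 29.1 CPM in shNC and 24.5, 24.1 and 20.1 CPM in shATGL, and with YJEFN3. Summed, these 3 rows measured 128, 129 and 157 CPM in shNC and 117, 113 and 129 CPM in shATGL. The sums overlapped and differed by -0.20 on the log2 scale, so that the value of the single row cannot be read alone. NDUFB8 overlaps HIF1AN on the opposite strand at 69.4 to 77.0 CPM and ENSG00000255339 on the same strand. Its sum with the latter did not overlap between groups and differed by -0.38. Both NDUFB8 and NDUFA13 passed an adjusted p under 0.05 in DESeq2, and no other member did. The share of all genes that passed in DESeq2 is not given here.

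The other complex I members with the smallest p were NDUFB4 (log2 fold change -0.32), NDUFB6 (-0.37), NDUFS5 (-0.31), NDUFA9 (-0.28) and NDUFA1 (-0.35). In each of these 5 accessory subunits the shATGL libraries lay under all shNC libraries. NDUFA1 measured 31.5, 30.1 and 35.4 CPM in shNC and 26.7, 22.9 and 26.4 CPM in shATGL. Its exons overlap those of RNF113A on the opposite strand, which held 85.7% of its counts, at 22.4 to 26.2 CPM. NDUFB6 overlaps SMIM27 on the opposite strand, which held 10.8% of its counts. NDUFA9 measured 37.1, 39.0 and 39.9 CPM in shNC and 30.4, 31.7 and 33.6 CPM in shATGL.

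NDUFS8, a core subunit that carries iron-sulfur clusters, was the exception in direction. It measured 67.6, 67.0 and 72.0 CPM in shNC and 67.6, 68.4 and 70.8 CPM in shATGL. The groups lay in the same range, with a log2 fold change of 0.00 and a 95% interval of -0.14 to 0.15. NDUFS1, the largest core subunit, stood at -0.04 (95% interval -0.17 to 0.10), and its exons overlap those of EEF1B2 on the opposite strand.

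NDUFC2 had the lowest fitted value of the complex, at -0.53 (SE 0.18), but its counts cannot be read alone because it shares exons with the read-through gene NDUFC2-KCTD14. NDUFC2 measured 65.3, 64.4 and 52.6 CPM in shNC and 35.9, 35.4 and 54.8 CPM in shATGL, so that the groups overlapped. NDUFC2-KCTD14 was high where NDUFC2 was low within each group, with 16.2, 16.8 and 41.2 CPM in shNC and 28.4, 26.2 and 17.1 CPM in shATGL. The read-through row took 19.9%, 20.7% and 43.9% of the pair in shNC and 44.1%, 42.5% and 23.8% in shATGL. Summed, the pair measured 81.5, 81.2 and 93.8 CPM in shNC and 64.3, 61.6 and 71.9 CPM in shATGL. The sums did not overlap and differed by -0.38 on the log2 scale (exact two-sided permutation p = 0.1, the smallest possible).

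NDUFA5 and NDUFA7 were also uneven across libraries. NDUFA5, of the matrix arm, measured 42.8, 44.1 and 40.3 CPM in shNC and 47.2, 44.9 and 30.7 CPM in shATGL. In it shATGL 1 and 2 lay above every shNC library and shATGL 3 below them all. NDUFA7 measured 19.0, 11.4 and 27.2 CPM in shNC and 17.9, 10.1 and 20.8 CPM in shATGL, with replicates of a group further apart than the groups. It shares exons with RPS28, a ribosomal protein gene on the opposite strand that held 606% of its counts, and with ENSG00000167774 on the same strand.

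Complex II, succinate dehydrogenase, links the citric acid cycle to the chain and is encoded wholly in the nucleus. SDHB, the iron-sulfur subunit, measured 124, 120.2 and 141 CPM in shNC and 99.9, 103 and 124 CPM in shATGL (log2 fold change -0.24, SE 0.10). SDHC, a membrane anchor, measured 153, 143 and 161 CPM against 118, 117 and 144 CPM (-0.27, SE 0.10). SDHD, the other anchor, measured 128, 127 and 132 CPM against 108, 107 and 125 CPM (-0.19, SE 0.08). All 3 were lower in shATGL 1 and 2 than in every shNC library, and shATGL 3 reached the shNC range in SDHB and SDHC. SDHC and SDHD had an unadjusted p under 0.05, and SDHB did not. SDHA, the flavoprotein, whose symbol lies outside the rule, had a log2 fold change of -0.08 (SE 0.08).

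Complex III passes electrons from ubiquinol to cytochrome c. All 9 members had a log2 fold change under 0, with a median of -0.24, and 6 had an unadjusted p under 0.05. UQCRH, the hinge protein beside cytochrome c1, measured 311, 299 and 341 CPM in shNC and 249, 238 and 274 CPM in shATGL (-0.32, SE 0.08). UQCR11, a small membrane subunit, measured 81.3, 83.8 and 94.3 CPM against 65.7, 59.3 and 74.7 CPM (-0.38, SE 0.10), and UQCRQ, which lies near cytochrome b, had a log2 fold change of -0.33 (SE 0.08). In these 3 genes the groups did not overlap. UQCRC2, a core protein of the matrix side, measured 224, 223 and 227 CPM in shNC and 235, 233 and 197 CPM in shATGL (-0.02, SE 0.08), and UQCRB measured 189.9, 199 and 196 CPM against 199, 191 and 141 CPM. In UQCRB and UQCRC2 the shATGL 1 and 2 libraries lay within or above the shNC range and shATGL 3 alone was below it.

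UQCRH has a near-identical copy, UQCRHL, a gene with 1 exon where UQCRH has 4, so that reads can be credited to either. In GENCODE 29 UQCRH lies at chr1:46303631-46316776 on the plus strand and UQCRHL at chr1:15807169-15809348 on the minus strand. The coding sequences are shown because they set how well the counts of the pair can be separated. They are 276 bases each and differ at 4 positions, G158A, G167A, G231A and G233A, counted from 1 at the first base of the start codon with the UQCRH base first, and the capitals in UQCRHL mark these bases.
UQCRH: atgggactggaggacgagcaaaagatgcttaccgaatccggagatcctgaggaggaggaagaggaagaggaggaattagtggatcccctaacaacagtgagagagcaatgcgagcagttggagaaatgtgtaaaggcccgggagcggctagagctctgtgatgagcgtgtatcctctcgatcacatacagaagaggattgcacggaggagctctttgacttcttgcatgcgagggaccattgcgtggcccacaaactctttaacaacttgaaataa
UQCRHL: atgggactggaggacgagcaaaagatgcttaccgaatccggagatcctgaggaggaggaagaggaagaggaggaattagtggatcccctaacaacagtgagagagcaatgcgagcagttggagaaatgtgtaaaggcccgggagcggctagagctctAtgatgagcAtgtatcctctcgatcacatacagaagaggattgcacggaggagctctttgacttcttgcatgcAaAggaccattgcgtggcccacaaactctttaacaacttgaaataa

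The longest run shared by the pair was 157 bases. UQCRHL measured 5.18, 5.53 and 6.11 CPM in shNC and 4.51, 3.70 and 6.31 CPM in shATGL, and took between 1.53% and 2.25% of the pair's counts in every library. UQCRHL had overlapping groups and a log2 fold change of -0.21 (SE 0.21), and the summed pair differed by -0.32 on the log2 scale, as UQCRH did alone.

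Complex IV, cytochrome c oxidase, had the lowest median of the complexes, at -0.33 over 14 members tested, with 11 at an unadjusted p under 0.05 and 11 with groups that did not overlap. With limma voom complex III was lower, at -0.35 against -0.34. Whether complex IV differs from the other complexes was not tested. COX5B measured 104, 101 and 123 CPM in shNC and 79.5, 76.5 and 91.4 CPM in shATGL (-0.41, SE 0.10). COX4I1, a regulatory subunit of the form found in most tissues, measured 378, 377 and 441 CPM against 325, 313 and 355 CPM (-0.27, SE 0.08). In COX5B and COX4I1 every shATGL library was under every shNC library. NDUFA4, once assigned to complex I and now to complex IV, measured 157, 155 and 174 CPM against 120.4, 122 and 141 CPM (-0.34, SE 0.08). COX6C, with -0.35 (SE 0.09), and COX5A, with the complex's highest value of -0.21 (SE 0.07) among members of at least 10 CPM, stood in the same order of groups.

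Several complex IV subunits exist as pairs of isoforms, one in most tissues and one found mainly in heart and skeletal muscle, lung or testis. In these cells only the common forms were present at appreciable levels. COX6A1 measured 196, 186 and 216 CPM in shNC and 147, 144 and 186 CPM in shATGL, COX8A 222, 215 and 256 CPM against 167, 166 and 211 CPM, and COX7A2 204, 187 and 219 CPM against 148, 157 and 180.5 CPM. Their log2 fold changes were -0.33 (SE 0.11), -0.35 (SE 0.11) and -0.33 (SE 0.09). COX6B1 stood at -0.24 (SE 0.08), COX7B at -0.27 (SE 0.08) and COX7A2L, whose product joins complexes III and IV in supercomplexes, at -0.28 (SE 0.12). Of the restricted forms, COX4I2, COX6A2 and COX7B2 had 0 counts in every library, COX7A1 had 5 counts in shATGL 1 alone, and COX8C had between 0 and 7 counts. COX6B2, the testis form, was at 0 to 0.353 CPM in shNC and 0 to 0.189 CPM in shATGL, and no direction can be read from it. NDUFA4L2, the relative of NDUFA4 induced by low oxygen, measured 4.43, 4.57 and 5.33 CPM in shNC and 4.69, 4.23 and 4.48 CPM in shATGL, with overlapping groups, and its exons overlap those of SHMT2 on the opposite strand.

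Complex V makes ATP. All 17 members tested had a log2 fold change under 0, with a median of -0.26, and 14 had an unadjusted p under 0.05. The 5 subunits of F1 (ATP5F1A to ATP5F1E), the part that forms ATP and includes the central stalk, had a median of -0.18. The 12 of the membrane part and peripheral stalk had a median of -0.28. The F1 genes had longer transcripts, with a median of 1839 bases against 628.5, and after correction for length and GC content the medians were -0.20 and -0.18. The difference between these parts was not tested. ATP5F1B, the catalytic beta subunit, measured 1115, 1109 and 1207 CPM in shNC and 962, 956 and 1106 CPM in shATGL (-0.18, SE 0.07), with shATGL 3 just under shNC 2. ATP5F1E, the smallest subunit of F1, was at -0.36 (SE 0.10), and ATP5F1D, the delta subunit, had overlapping groups at -0.11 (SE 0.07).

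ATP5PO, the stalk subunit that confers sensitivity to oligomycin, measured 206, 203 and 221 CPM in shNC and 167, 171 and 184 CPM in shATGL (-0.27, SE 0.06). ATP5PF, coupling factor 6, measured 95.2, 95.5 and 99.7 CPM against 83.4, 83.5 and 80.3 CPM (-0.23, SE 0.06). Neither gene had overlapping groups, and in ATP5PF, unlike most members, shATGL 3 was the lowest library. ATP5PF shares exon bases with GABPA, transcribed on the opposite strand, which measured 33.1, 36.1 and 25.6 CPM in shNC and 45.0, 39.0 and 26.7 CPM in shATGL. ATP5MK and ATP5MG, small membrane subunits, were at -0.34 (SE 0.09) and -0.31 (SE 0.08).

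The c subunit, which forms the rotating ring of ATP synthase, is made from the genes ATP5MC1, ATP5MC2 and ATP5MC3. They encode the same mature protein after different import signals, and the end of their coding sequences is shown because it bears on how far reads can be told apart. The last 228 coding bases are given from GENCODE 29, with capitals marking bases that differ from ATP5MC1.
ATP5MC1: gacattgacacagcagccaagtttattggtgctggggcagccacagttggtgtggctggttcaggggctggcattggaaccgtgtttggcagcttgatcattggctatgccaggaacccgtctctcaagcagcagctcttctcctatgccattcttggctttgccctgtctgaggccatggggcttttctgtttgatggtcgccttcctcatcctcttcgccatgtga
ATP5MC2: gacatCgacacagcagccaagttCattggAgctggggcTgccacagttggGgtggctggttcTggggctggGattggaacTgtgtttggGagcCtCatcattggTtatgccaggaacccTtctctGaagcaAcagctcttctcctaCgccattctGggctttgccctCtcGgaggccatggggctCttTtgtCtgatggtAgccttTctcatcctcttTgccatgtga
ATP5MC3: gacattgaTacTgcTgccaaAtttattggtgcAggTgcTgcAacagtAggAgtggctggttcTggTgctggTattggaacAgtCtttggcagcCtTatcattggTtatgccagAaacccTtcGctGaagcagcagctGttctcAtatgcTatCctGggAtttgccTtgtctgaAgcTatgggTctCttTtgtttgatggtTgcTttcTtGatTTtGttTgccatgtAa

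ATP5MC2 differed from ATP5MC1 at 25 of these bases and ATP5MC3 at 43, and the longest runs shared with ATP5MC1 were 17 and 11 bases. All 3 genes were lower in shATGL 1 and 2 than in every shNC library, and shATGL 3 lay within the shNC range. ATP5MC1 measured 80.3, 75.5 and 89.2 CPM in shNC and 63.0, 63.0 and 78.7 CPM in shATGL (-0.26, SE 0.11). ATP5MC2 measured 282, 276 and 323 CPM against 246, 236 and 281 CPM (-0.21, SE 0.09). ATP5MC3 measured 288, 282 and 326 CPM against 234, 234 and 289 CPM (-0.24, SE 0.10). ATP5MGL, an ATP5MG relative, held 4 counts in shNC 3 and 14 in shATGL 3 and none in the other libraries, and ATP5MF-PTCD1 held 2 to 6 counts.

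The size of the difference depended on the library. Relative to the shNC mean, the median member stood at 97.4%, 94.5% and 107.6% in shNC 1 to 3 and at 80.5%, 79.7% and 91.1% in shATGL 1 to 3. shATGL 3 was the highest of the shATGL libraries in 67 of 80 members, and shNC 3 was the highest of the shNC libraries in 73. In 26 members shATGL 3 reached the lowest shNC library, whereas shATGL 1 and 2 were both under every shNC library in 68. These library orders were counted over the members only, without the share over all genes beside them. The members in which shATGL 3 lay furthest under the other shATGL libraries were NDUFC2-KCTD14 (-0.67 on the log2 scale), NDUFA5 (-0.58) and UQCRB (-0.47). The 9297 genes of at least 10 CPM stood at 97.0%, 97.4% and 98.3% in shATGL 1 to 3.

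**Figure D3:**
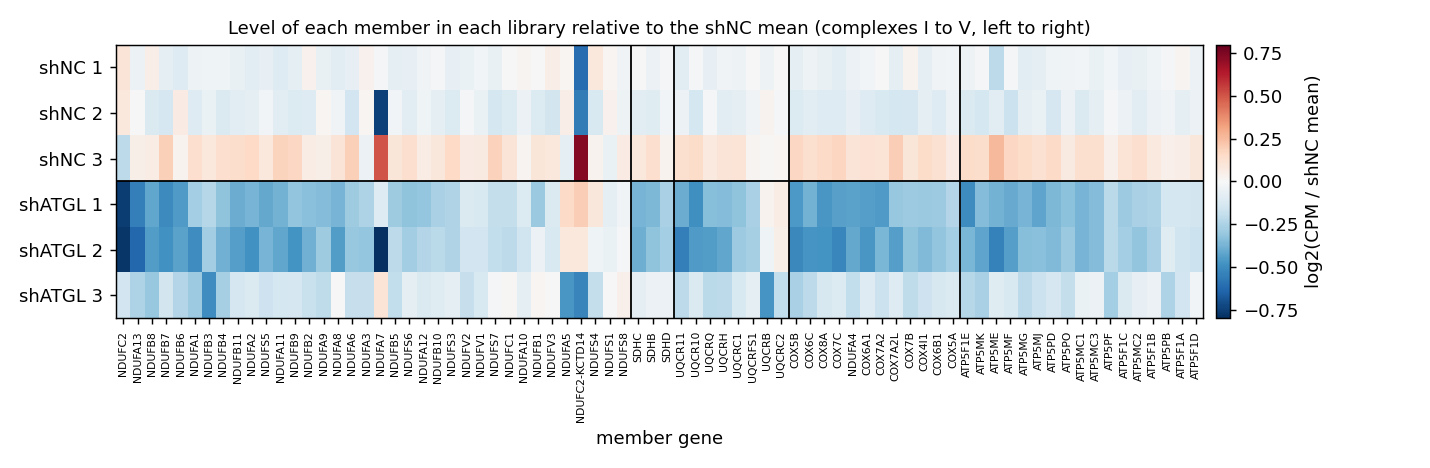
Level of each of 76 members (columns, by complex and then by fold change) in each library (rows) as log2 of its CPM over the shNC mean, with colours limited to the range from -0.8 to 0.8. The shATGL 1 and 2 rows are blue in most columns, shATGL 3 is paler, and shNC 3 is mostly above the shNC mean.

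Without shATGL 3, the median of the members was -0.32 and 51 of 80 members (63.8%) had an adjusted p under 0.05 and were lower, against 6.07% of the genes tested in that fit (edgeR). These were 18 members of complex I, 3 of complex II, 6 of complex III, 11 of complex IV and 13 of complex V. NDUFB8 then stood at -0.43 (adjusted p = 0.0082) and SDHC at -0.38 (adjusted p = 0.0091). That fit kept shNC 3, the highest shNC library in 73 of 80 members. Without shNC 3 instead, the median of the members was -0.19. With all 6 libraries and limma voom, which gave each library a quality weight, 51 members (63.8%) were also past an adjusted p of 0.05 and lower, against 5.27% of genes. The members' median with limma voom was -0.29, between -0.26 in the main fit and -0.32 without shATGL 3. NDUFC2 stood at -0.77 with limma voom and without shATGL 3, against -0.53 in the main fit. The library weights are not given here, so the voom count cannot be taken as independent of the fit without shATGL 3. Leaving out shATGL 1 instead brought the members at an unadjusted p under 0.05 from 55 to 25, leaving out shATGL 2 to 26 and leaving out shNC 3 to 28. In each of these fits no member passed the adjusted threshold. The share of all genes at an unadjusted p under 0.05 is not given for these fits, so the fall cannot be set against all genes.

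Transcript length moved with the difference. Over the 9271 genes with a length and a mean of at least 10 CPM, Spearman's rho between length and log2 fold change was 0.532, over all 18566 tested genes with a length it was 0.205 and over the 80 members 0.322. These are a description across genes, which are not replicates and share the 6 libraries. The members are short, with a median of 880 bases against 2368 for all genes tested, and 68 of 80 were shorter than that. The shorter members had a median log2 fold change of -0.27, where all shorter genes had -0.05. The 12 longer members had -0.16, all 12 under 0, where all longer genes had 0.05. Among genes of 648 to 1075 bases, 28 members had a median of -0.27 and all genes -0.09. In these comparisons all genes means genes tested at any level, whereas 77 of the 80 members had a mean of at least 10 CPM. Members were not compared at like length with genes of at least 10 CPM, where the trend with length was steeper. After each library's trend with length and GC content was corrected, the members' median was -0.20 and 42 of 80 (52.5%) were lower at an unadjusted p under 0.05, against 7.08% of 18566 genes. The corrected trends were fitted over genes with a mean log2 CPM over 0, so that genes under 10 CPM took part. How well they describe genes of at least 10 CPM was not examined. The part of transcript length in the difference beyond this correction was not tested.

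**Figure D4:**
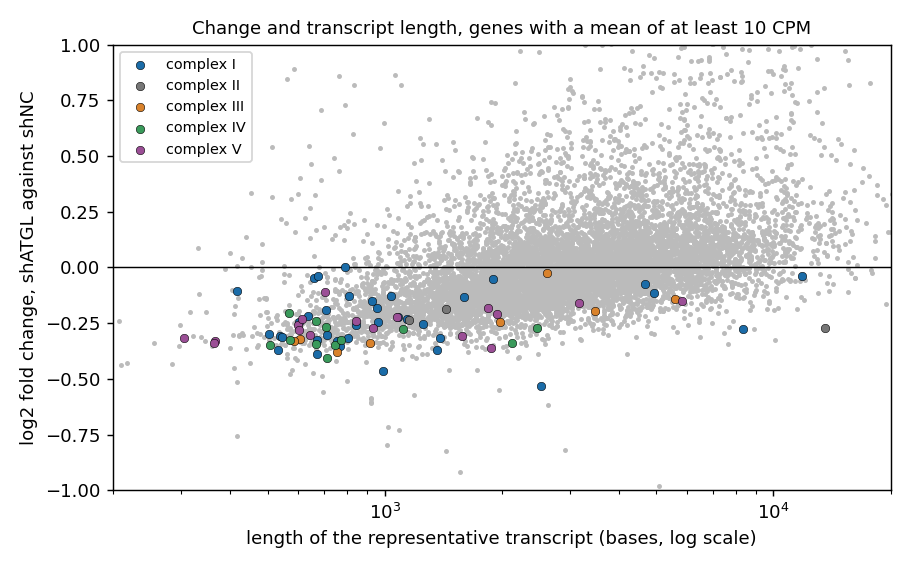
Log2 fold change of shATGL against shNC (vertical axis, limited to -1 to 1) against the length of 1 representative transcript (horizontal axis, log scale) for genes with a mean of at least 10 CPM. Grey points are all genes, of which 56 of 9271 lie beyond the limits, and coloured points are 76 members by complex. Grey points rise with length, and all 12 members longer than 2368 bases lie under 0.

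Other genes also share exon positions with the members, and the strand setting of the counts is not given in the sources used here. Of the 80 members tested, 25 overlapped a gene that held at least 10% of their counts, and 18 of these had an unadjusted p under 0.05. The 55 without such a gene had a median log2 fold change of -0.24, and 37 had an unadjusted p under 0.05.

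Levels differed widely between members of a complex. Per kilobase of the representative transcript, complex I members ranged from 4.22 CPM per kb (NDUFA9) to 230 (NDUFB9), and complex IV members of at least 10 CPM from 34.9 (COX7B) to 515 (COX4I1). ATP5F1B was highest in complex V at 585 CPM per kb, against 18.9 for ATP5F1E, and UQCRH was highest in complex III at 472, against 2.39 for UQCRHL. Within complex II, SDHB had 103 CPM per kb and SDHC 10.3. Some representative transcripts, such as those of SDHC and NDUFA9, have long 3′ ends. Per kilobase of coding sequence, a length chosen after these values were seen, the range in complex I was 31.1 (NDUFA9) to 303 (NDUFB9) and the order within complex II was reversed, with SDHC at 273 and SDHB at 141. On that scale COX8A was highest in complex IV at 982 and COX7A2L lowest at 157 among members of at least 10 CPM. ATP5F1B remained highest in complex V at 677, while ATP5F1E stood at 228 and the lowest was ATP5ME at 57.1.

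The promoter motifs did not sort the members by size of difference in a uniform way. The 13 members with the NRF1 letters had a median log2 fold change of -0.24 and the 53 without had -0.27. The 20 with the ETS letters had -0.32 and the 46 without had -0.24, and the 8 with the YY1 letters had -0.24 against -0.27 in 58 without. None of these differences was tested.

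Genes that work with these subunits were read from lists. Of all genes tested, 48.1% had a log2 fold change under 0 and 5.94% were lower at an unadjusted p under 0.05. Without shATGL 3, 6.07% of genes were lower at an adjusted p under 0.05 (edgeR). The 13 subunits encoded by mitochondrial DNA all had a log2 fold change under 0, with a median of -0.24 and 8 at an unadjusted p under 0.05, and none passed the adjusted threshold in edgeR. Without shATGL 3 their median was -0.33 and 11 of 13 were lower at an adjusted p under 0.05 (edgeR). MT-ND2, a proton-pumping subunit of complex I, had the lowest value, -0.33 (SE 0.10), and MT-CO1, the catalytic subunit of complex IV, had -0.26 (SE 0.12), which was -0.41 without shATGL 3 and -0.17 without shATGL 2. The share of all counts on mitochondrial DNA was 7.41% to 8.17% in shNC and 6.34%, 6.51% and 7.66% in shATGL 1 to 3, so that shATGL 3 was again nearest to shNC.

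Of 52 genes listed as assembly factors, most of which help to build the complexes without staying in them, 44 had a log2 fold change under 0, with a median of -0.17. An unadjusted p under 0.05 was reached by 10, all lower, against 5.94% of all genes tested and 10.4% of those of at least 10 CPM. Among these 10 were COX16 (-0.36, SE 0.09), SDHAF3 (-0.37, SE 0.10), COX17 (-0.34, SE 0.11), a copper carrier for complex IV, and COX20 (-0.62, SE 0.18). COX20 measured 16.9, 26.2 and 17.4 CPM in shNC, so that shNC 2 stood high, and its value without shNC 2 was -0.36. Without shATGL 3 the median of the assembly factors was -0.20. At an adjusted p under 0.05, 10 were then lower, against 6.07% of genes in that fit, and 1 was higher (edgeR). The higher one was LRPPRC, which stabilises mitochondrial mRNAs. It measured 265, 295 and 230.3 CPM in shNC and 397, 395 and 217 CPM in shATGL, with overlapping groups, and stood at 0.35 (SE 0.22) with all libraries and at 0.59 without shATGL 3. Of the 5 tested carriers and subunits outside the naming rule, all were under 0, and NDUFAB1 (-0.31, SE 0.10) and CYC1 (-0.25, SE 0.09), cytochrome c1 of complex III, had an unadjusted p under 0.05. Without shATGL 3 the median of these 5 moved from -0.14 to -0.16, and 2 were lower at an adjusted p under 0.05.

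Of 15 tested regulators of mitochondrial gene expression, 8 had a log2 fold change under 0 and 7 over it, with a median of -0.02, and none had an unadjusted p under 0.05. Without shATGL 3 the median was -0.06 and none passed an adjusted p of 0.05 in edgeR. NRF1 had -0.17 (SE 0.09), GABPA 0.23 (SE 0.20), YY1 -0.07 (SE 0.07), TFAM, which packages mitochondrial DNA and helps to start its transcription, 0.02 (SE 0.10) and MYC -0.08 (SE 0.07). In POLG (0.11, SE 0.05) and HCFC1 (0.13, SE 0.07) every shATGL library lay above every shNC library, as in 1519 of all 19149 genes tested. The reverse order held in 0 of the regulators. PPARGC1A was nearly absent, with 0 CPM in every shATGL library and a mean of 0.018 CPM in shNC, while PPARGC1B, its relative, was present at 33.0 CPM in shNC and 35.1 CPM in shATGL.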

How the data were processed

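Per the study's methods, reads were quality-trimmed with FASTP. The authors deposited 1 table of raw counts for 61806 human Ensembl genes, without normalization. The labels describe amplification after Geo-seq and a transposase-based library kit. Aligner, counter and strand setting are not given in the sources used here, and the labels name mm10, a mouse build, for human identifiers. All 6 columns were mapped to samples, and 0 were left over.

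Groups were taken from the sample labels. Genes were filtered with filterByExpr (minimum count 10, minimum total 15), scaled with TMM and tested with edgeR 4.0.16 (glmQLFit, glmQLFTest, R 4.3.3), with Benjamini-Hochberg adjustment over 19149 genes. Calls needed an adjusted p under 0.05 with a fold change of 2 or more. DESeq2 1.42.0, limma 3.58.1 voom with quality weights, other filters and scalings, a replicate block, libraries left out and offsets for length and GC (natural splines, 4 df) were alternatives. Scripts were tested on simulated data.

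Lengths, positions, coding sequences and exon overlaps came from GENCODE 29 (GRCh38), with 1 protein-coding transcript per gene chosen by APPRIS, CCDS and support level and then median length. Promoters came from RefSeq (GRCh38.p14), and 14 of 80 tested members had none in the table. Named genes were PNPLA2 as the label check, and among members the 20 smallest p, the extremes of fold change and of level per length by complex, the isoform pairs and all SDH genes. Others named for their values across libraries or in the lists were chosen after those values were seen. Members and lists were chosen with earlier results of these data known. Of the 87 members, 80 passed the filter, and 72 had at least 1000 counts in every library. Replicates differed by more than sampling noise. Results of 1 member and 1 marker are not reported here by name.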

Additional observations from a re-analysis of the deposited data

How the results depend on the processing

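The members' median log2 fold change stayed under 0 in every alternative run, and no member was called at a fold change of at least 2 in any. At an adjusted p under 0.05 and any fold change, 0 members passed with edgeR and all libraries. Under the other settings, a count added after the data were seen, 2 passed with DESeq2, 51 with limma voom and 0 to 51 with 1 library left out, 51 being without shATGL 3. For DESeq2 the share of all genes is not given. Members at an unadjusted p under 0.05 numbered 55, and 25 (without shATGL 1) to 66 (without shATGL 3) with 1 library left out. The share of all genes at that p is not given for fits with 1 library left out or with the replicate block. The median of complex III was -0.24, -0.35 with limma voom (under the -0.34 of complex IV there) and from -0.38 to -0.19 with 1 library left out. PNPLA2 ranged from -0.024 to 0.033 with 1 library left out, turning positive without shNC 3 and without shATGL 2. NDUFS8 turned from 0.00 to -0.0016 with DESeq2 size factors, -0.012 with upper-quartile scaling, -0.0035 with DESeq2 and -0.0018 with limma voom, and ranged from -0.020 to 0.033 with 1 library left out. UQCRC2 turned to 0.042 with limma voom and ranged from -0.068 to 0.053, and COX6B2, at under 1 CPM, turned to 1.65 with limma voom and ranged from -1.59 to 0.43. The cause of these turns was not tested. The other 38 of 41 named members with a fit kept their direction in all 14 alternatives. Deviations from the group mean correlated at 0.060, 0.23 and 0.34 between same-numbered libraries 1, 2 and 3. shNC 3 correlated at -0.23 and -0.29 with shATGL 1 and 2, and shATGL 3 at -0.09 and -0.28 with shNC 1 and 2. shNC 1 and shATGL 2 correlated at 0.08, and shNC 2 and shATGL 1 at 0.19. The 2 libraries numbered 3 thus deviated in a like way, and whether they share a batch was not tested. The main fit did not pair the libraries. With the replicate block 65 members had an unadjusted p under 0.05 and none passed the adjusted threshold. With 3 libraries a group, the median SE of a member was 0.09 on the log2 scale.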
